A study of Homo sapiens with 4 samples.

Results

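10 genes of the transforming growth factor beta (TGF-beta) pathway were examined after siRNA against MLL-AF9 in the leukemia line THP1: the ligands TGFB1, TGFB2 and TGFB3, the receptors TGFBR1, TGFBR2 and TGFBR3, and the signal transducers SMAD2, SMAD3, SMAD4 and SMAD7. Members were chosen by gene symbol, as every probe that carries one of the 10 names, is no control probe and has a quality weight above 0 on all arrays. This gave 10 of 17938 genes, with 1 probe each, on 37 of the 33323 spots analysed. A probe is a stretch of 60 bases of 1 transcript, printed on 1 spot for 7 of the members and on 10 identical spots for TGFB1, SMAD3 and SMAD4.

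TGF-beta ligands are secreted in a latent form and, once released, bring the type II receptor TGFBR2 and the type I receptor TGFBR1 together, while TGFBR3 (betaglycan) is a co-receptor that presents ligand. The activated type I receptor phosphorylates SMAD2 and SMAD3, which join SMAD4 and enter the nucleus to regulate genes, and SMAD7 is an inhibitor that blocks the receptor and is itself a target of the pathway. In cells of the monocyte lineage TGF-beta is known for growth arrest, for effects on migration and for a role in maturation along with other factors.

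THP1 is a line of acute monocytic leukemia (AML M5) that carries MLL-AF9, a fusion of the genes MLL and MLLT3 (AF9), and all groups share this line and fusion. Cells of the knockdown group received siRNA-A or siRNA-B, both directed at the fusion breakpoint, and cells of the control group received control siRNA-1 or control siRNA-2, which have no target. All were transfected on days 0, 3 and 6 and harvested on day 8, with serum at 10% up to day 6 and 0.5% thereafter. Each siRNA is represented by 1 single-colour Agilent array holding RNA pooled from 5 experiments, which gives 2 knockdown and 2 control arrays, and the spread is that between pools with different siRNAs. The arrays shared 1 slide, on which the knockdown samples lay side by side and the control samples lay side by side, and an effect of place on the slide cannot be told apart from that of the siRNAs.

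The median log2 intensity over all probes lay between 8.17 and 8.26 on the 4 arrays, against a local background between 4.25 and 4.46, and 70.0% to 71.2% of spots on the knockdown arrays and 74.3% on either control array were well above background. All 10 members were well above background on every array. As a check of the knockdown, MLLT3, the partner gene within the fusion, had log2 intensities of 6.82 with siRNA-A and 6.87 with siRNA-B against 7.59 and 7.61 in the controls, a log2 fold change (log2FC) of -0.76 with an adjusted p of 0.0639 in limma. No probe is known to span the fusion junction, so this check also reads MLLT3 itself. HOXA9, a homeobox gene regulated by MLL fusions, was down-regulated by 1 probe (log2FC -0.56, unadjusted p = 0.00267), and its other probe gave -0.29.

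Sequences are shown for the member whose probe is printed on 10 spots and crosses an exon junction, and for the promoters of the 3 members in which both knockdown arrays lay above both control arrays. The TGFB1 probe aligns to the minus strand of chr19:41838142-41847802 (hg19), a span of 9661 bases for 60 letters, and therefore reads spliced RNA. Its sequence, from 5′ to 3′ in the sense of the transcript, is the following.
TGFB1 probe: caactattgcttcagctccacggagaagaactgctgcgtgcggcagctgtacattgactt
The promoters are the 250 bases before the first start that RefSeq lists for each gene in GRCh38.p14, written on the strand of the gene. Capitals mark matches, on either strand, to any of 5 motifs. GGGCGG is the GC box and CAGAC is the core that SMADs bind. The TATA box was searched as TATAAA, and the AP-1 site as TGACTCA. The last of the motifs searched is the box CCAAT.
TGFBR1, chr9:99104863-99105112, plus strand: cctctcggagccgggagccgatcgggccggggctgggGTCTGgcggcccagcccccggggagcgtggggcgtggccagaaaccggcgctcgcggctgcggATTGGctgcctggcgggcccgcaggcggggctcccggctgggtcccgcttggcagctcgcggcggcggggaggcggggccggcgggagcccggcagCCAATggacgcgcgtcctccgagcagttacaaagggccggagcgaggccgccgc
TGFBR2, chr3:30606106-30606355, plus strand: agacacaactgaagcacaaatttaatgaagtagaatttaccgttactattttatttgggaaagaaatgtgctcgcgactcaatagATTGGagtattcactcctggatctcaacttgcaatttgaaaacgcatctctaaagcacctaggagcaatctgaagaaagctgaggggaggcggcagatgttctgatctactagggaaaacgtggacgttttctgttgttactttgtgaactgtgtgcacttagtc
SMAD3, chr15:67065352-67065601, plus strand: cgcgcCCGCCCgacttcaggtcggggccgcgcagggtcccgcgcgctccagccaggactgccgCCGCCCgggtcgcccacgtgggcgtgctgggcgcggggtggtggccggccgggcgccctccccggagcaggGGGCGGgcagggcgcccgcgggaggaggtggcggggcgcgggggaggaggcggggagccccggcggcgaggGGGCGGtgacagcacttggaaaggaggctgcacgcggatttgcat

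The 3 windows had little in common in these letters. That of TGFBR1 was 79.6% G and C and held 1 CAGAC and 2 CCAAT boxes but no GC box, and that of SMAD3 was 80.8% G and C and held 4 GC boxes. That of TGFBR2 had 40.8% G and C and held 1 CCAAT box. Over all 10 members the median G and C content was 71.0%, against 58.0% over 27305 promoters of the same length. A GC box stood in 5 of the 10 members' windows and in 42.3% of all windows, CAGAC in 4 and in 37.8%, and CCAAT in 4 and in 33.0%. TATAAA stood in 1 member, TGFB2, and in 11.1% of all windows, and TGACTCA in 0 members and in 4.16%. A match of letters is a description and does not show that a factor binds there.

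Among the 10 members 1 gene, TGFBR1, was up-regulated after knockdown of MLL-AF9 with a limma p, unadjusted, under 0.005, and none was down-regulated. This is the first part of the study's call rule, whose second part, a test over identical spots, does not apply to a probe on 1 spot such as that of TGFBR1. At the same threshold 345 of 26219 probes were called, or 1.32%, and 0.584% of probes were called higher. The count of 1 at an unadjusted p under 0.05 was set against 8.06% of all probes. TGFBR2 and SMAD3 were over 0.05 in this setting, but under it after quantile, cyclic loess or normexp with quantile normalization. No member had an adjusted p under 0.05 in limma, which 0.118% of probes had. In 3 members, TGFBR1, TGFBR2 and SMAD3, both knockdown arrays lay above both control arrays, a pattern found in 15.2% of all probes. The opposite pattern, found in 21.4% of probes, occurred in 0 members, and the groups overlapped in the other 7. The median log2FC of the members was 0.056 against -0.021 over all genes, and the median size of their log2FC without regard to sign was 0.088 against 0.0995.

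**Figure D1:**
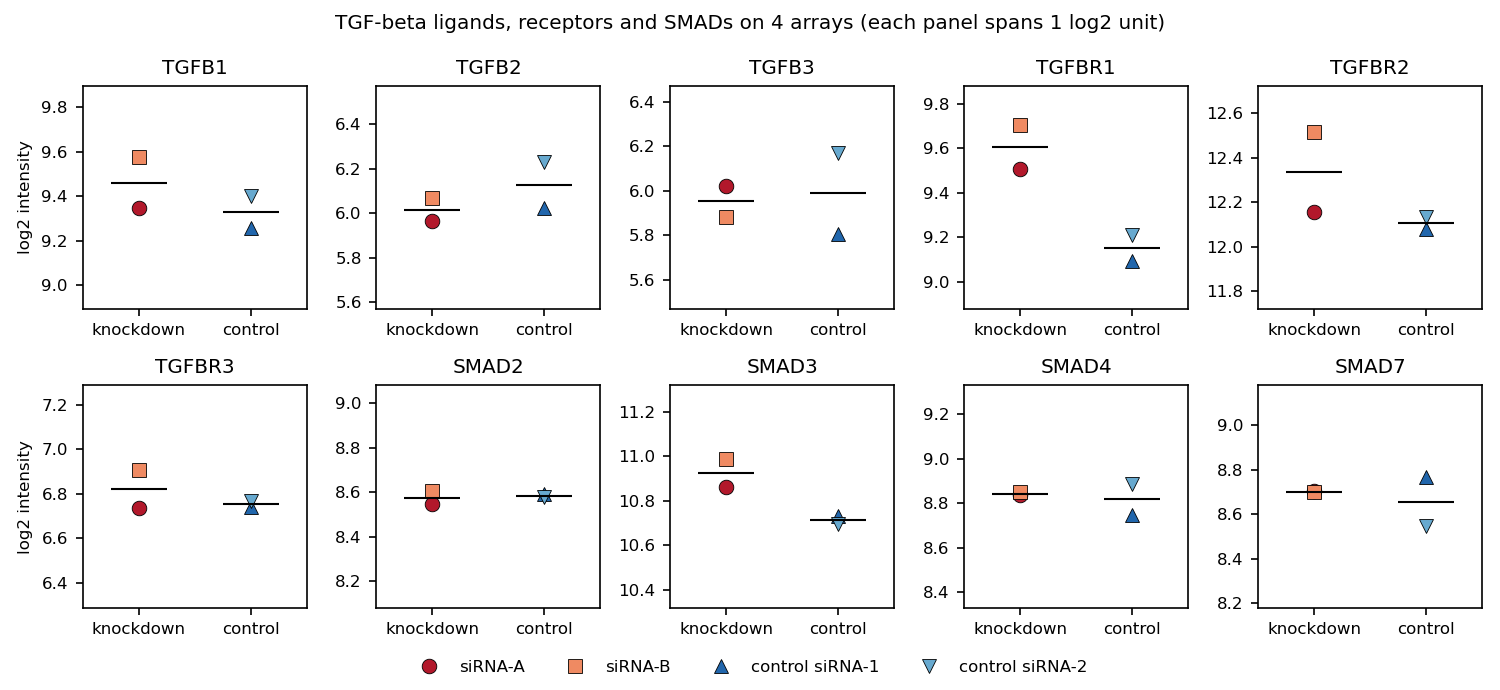
Log2 intensity of the 10 members on each of the 4 arrays, 1 panel per gene, with the 2 knockdown arrays on the left, the 2 control arrays on the right and a bar at each group's mean. TGFBR1, TGFBR2 and SMAD3 show both knockdown arrays above both controls, by a wide gap in TGFBR1 and a narrow one in TGFBR2. The panels all span 1 log2 unit, but levels of different probes cannot be compared.

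The ligands showed no call. TGFB1, the main isoform of blood cells, had log2 intensities of 9.35 with siRNA-A and 9.58 with siRNA-B, and of 9.26 and 9.40 in control siRNA-1 and control siRNA-2. The siRNA-A array lay between the controls and only the siRNA-B array lay above both. The log2FC of TGFB1 was 0.13 with a 95% confidence interval of -0.16 to 0.42 (adjusted p = 0.857).

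TGFB2, an isoform best known from development, had 5.97 and 6.07 in the knockdown arrays and 6.02 and 6.23 in the controls. Its log2FC was -0.11 (95% confidence interval -0.39 to 0.17, adjusted p = 0.877). The siRNA-B array lay between the controls. The log2FC of TGFB2 was -0.35 and -0.38 with the background-subtracted signal, scaled and unscaled, and -0.0064 without control siRNA-2. TGFB3, the third isoform, had 6.02 with siRNA-A, 5.88 with siRNA-B, 5.81 with control siRNA-1 and 6.17 with control siRNA-2. Both knockdown arrays lay between the controls, which were 0.36 apart, the widest gap between controls among the members. Its log2FC was -0.036 (95% confidence interval -0.36 to 0.29, adjusted p = 0.977). The TGFB2 probe lies at chr1:218614784-218614843 on the plus strand and the TGFB3 probe at chr14:76424904-76424963 on the minus strand of hg19.

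Of the receptors, TGFBR1 was up-regulated. This type I receptor, the kinase that phosphorylates SMAD2 and SMAD3, had log2 intensities of 9.51 with siRNA-A and 9.70 with siRNA-B, against 9.10 and 9.21 in the controls. All knockdown values lay above all control values, with means of 9.61 ± 0.14 and 9.15 ± 0.083 (SD, n = 2 each). The log2FC was 0.45 ± 0.12 (SE), or 1.37-fold, with an unadjusted p of 0.00492 and an adjusted p of 0.378 in limma. The 95% confidence interval ran from 0.18 to 0.73. Against the mean of both controls siRNA-A gave 0.36 and siRNA-B 0.55. TGFBR1 stood at rank 340 of 26219 probes by p and at rank 294 by the size of the rise. Its single-spot probe lies at chr9:101916322-101916381 on the plus strand of hg19.

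The p of TGFBR1 was close to the threshold. The limma call was lost when the spot weights were left out (unadjusted p = 0.00502), when the background-subtracted signal was used with or without scaling (unadjusted p = 0.00878 and 0.0203), and when any array was left out. The log2FC was positive in all 12 alternatives, from 0.36 to 0.55.

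**Figure D2:**
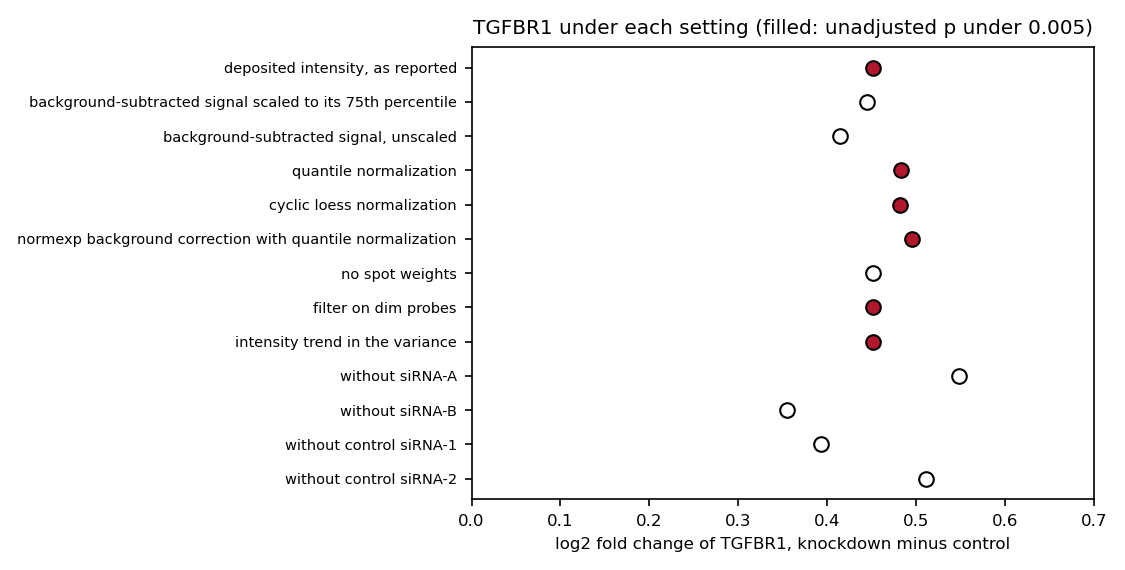
Log2FC of TGFBR1 (knockdown minus control) under the reported setting, at the top, and each of 12 alternatives, with filled points where the unadjusted p was under 0.005. Every value is above 0, between 0.36 and 0.55, and 7 of the 12 alternatives have open points.

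TGFBR2, the type II receptor that binds ligand first, had 12.16 with siRNA-A and 12.52 with siRNA-B, against 12.08 and 12.14 in the controls. Both knockdown arrays lay above both controls, but the siRNA-A array by little. The log2FC of TGFBR2 was 0.23 (95% confidence interval -0.087 to 0.54, unadjusted p = 0.135, adjusted p = 0.751), and it was 0.049 for siRNA-A alone and 0.41 for siRNA-B alone. TGFBR3, the co-receptor, had 6.73 with siRNA-A, 6.91 with siRNA-B, and 6.74 and 6.77 in the controls, so that the siRNA-A array lay just below both controls and the siRNA-B array above both. Its log2FC was 0.066 (95% confidence interval -0.20 to 0.33, adjusted p = 0.929). The probes lie at chr3:30735163-30735222 on the plus strand for TGFBR2 and at chr1:92148888-92148947 on the minus strand for TGFBR3 (hg19).

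None of the SMADs was called. SMAD3, a receptor-activated SMAD that binds DNA directly, had log2 intensities of 10.86 with siRNA-A and 10.99 with siRNA-B, against 10.73 and 10.70 in the controls. Both knockdown arrays lay above both controls. Its log2FC was 0.21 ± 0.11 (SE), with a 95% confidence interval from -0.046 to 0.47, an unadjusted p of 0.0951 and an adjusted p of 0.713. SMAD2, the other receptor-activated SMAD of this branch, had 8.55, 8.60, 8.59 and 8.58 with siRNA-A, siRNA-B and the controls in turn. Its values differed by less than those of any other member, with a log2FC of -0.0087 (95% confidence interval -0.26 to 0.24, adjusted p = 0.994).

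SMAD4, the partner common to all receptor-activated SMADs, had 8.84 and 8.85 in the knockdown arrays, between the 8.75 and 8.89 of the controls. Its log2FC was 0.026 (95% confidence interval -0.23 to 0.28, adjusted p = 0.982). SMAD7, the inhibitor that TGF-beta itself induces, had 8.70 in either knockdown array, between 8.77 and 8.55 in the controls. Its log2FC was 0.045 (95% confidence interval -0.23 to 0.32, adjusted p = 0.963). In hg19 the probes lie at chr18:45360188-45360247 for SMAD2 and chr18:46446782-46446841 for SMAD7, both on the minus strand, and at chr15:67487391-67487450 for SMAD3 and chr18:48605060-48605119 for SMAD4, both on the plus strand.

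**Figure D3:**
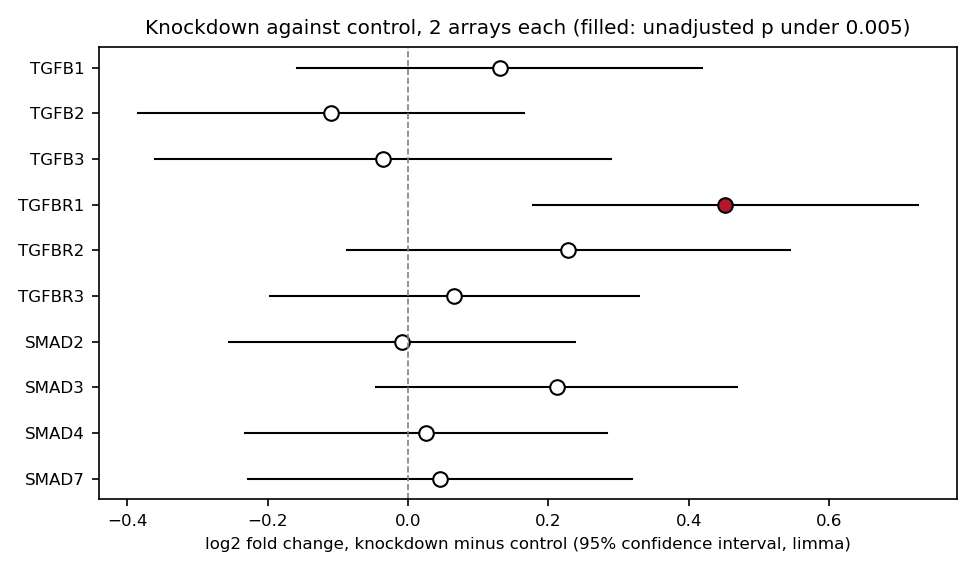
Log2FC of each member, knockdown minus control (points), with its 95% confidence interval from limma (lines), and a filled point where the unadjusted p was under 0.005. The interval of TGFBR1, from 0.18 to 0.73, is the only one of the 10 that leaves out 0.

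The width of the intervals sets what could be seen. The intervals reached 0.247 to 0.325 to either side of the measured log2FC, and for a member without a call they hold every size of change within that reach. On simulated data of this design with 26219 probes, 92 of 100 probes with a true log2FC of 1 and 50 of 100 with a true log2FC of 0.5 were called.

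The siRNAs did not weigh equally in most members. In 8 of the 10 the siRNA-B array was above the siRNA-A array, as in 63.9% of all genes, where siRNA-B was higher by a median of 0.071. The gap was widest in TGFBR2, at 0.36. Log2FCs of siRNA-A and siRNA-B against the mean of the controls had the same sign in 7 members, in 6 of them positive. The pairs of values share their controls, and each siRNA had 1 array, so that the difference between siRNAs was not tested.

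The 10 identical spots of TGFB1, SMAD3 and SMAD4 give the spread within an array. For SMAD3 all 10 spots had a higher mean in the knockdown arrays than in the controls, by 0.12 to 0.32. For TGFB1 9 spots were higher and 1 was lower, from -0.11 to 0.26, and for SMAD4 6 were higher and 4 lower, from -0.097 to 0.13. Within an array the SD between spots of 1 probe was 0.09 to 0.20. This SD includes differences between spot positions that the arrays share, as the same SMAD3 spot was the lowest on every array. Spots of 1 array measure the same pool and are no replicates of the treatment.

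**Figure D4:**
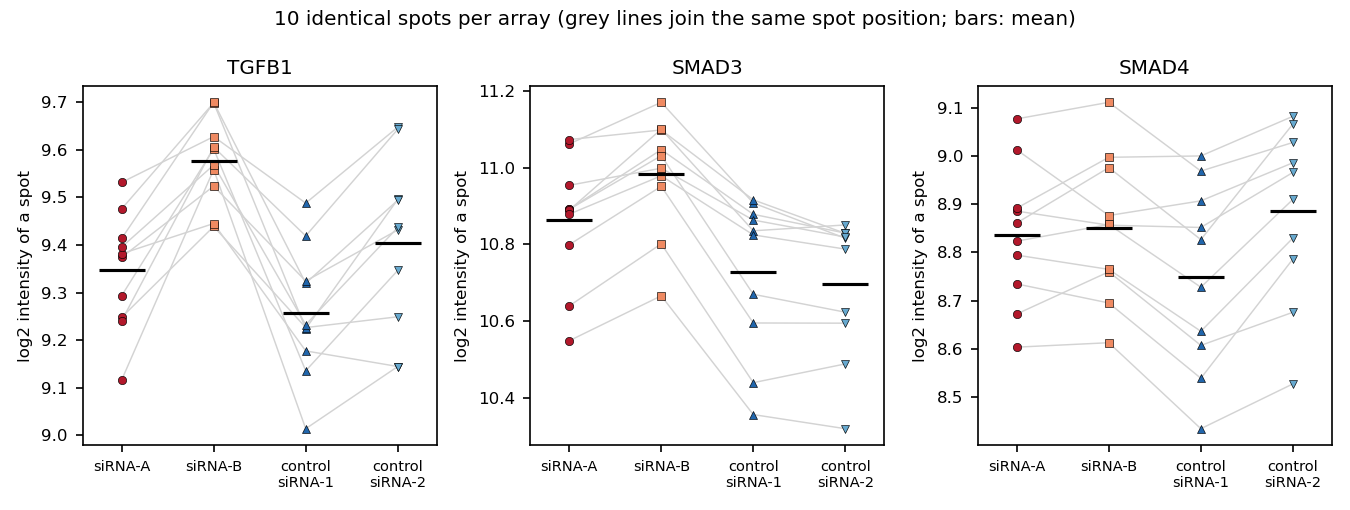
Log2 intensity of the 10 identical spots of TGFB1, SMAD3 and SMAD4 on each array, with a bar at the mean of the spots and grey lines joining the spot at the same position across arrays. The lines of SMAD3 fall together from siRNA-B to both controls, whereas the spots of SMAD4 cover similar ranges on all arrays and the mean of TGFB1 is highest with siRNA-B.

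The rest of the pathway was described with 158 further genes in 10 lists, of which 133 had a probe that entered the test. Each gene was represented by its brightest probe. At an unadjusted p under 0.005, 2 of the 133 were up-regulated and none down-regulated, against 0.63% of all genes higher and 0.702% lower. At an unadjusted p under 0.05 there were 9 higher and 4 lower, against 3.26% and 4.74% of all genes. These 13 genes are the 2 called and 11 others, and each of the 11 had a p over 0.05 when at least 1 of the arrays was left out. Of the 11, 7 were still under 0.05 without siRNA-A, 3 without siRNA-B, 2 without control siRNA-1 and 1 without control siRNA-2. Signs were balanced, with 66 positive and 67 negative log2FCs and a median of -0.0015. Of the 133 genes 120 were well above background on all arrays.

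The list of genes that respond to TGF-beta in monocytes and macrophages held both calls. Like the other lists it was chosen with earlier results of these data known, so its counts are a description and not a test. Of its 14 genes 13 had a positive log2FC, as had 43.8% of all genes, and 8 had both knockdown arrays above both controls, as had 15.2% of all probes. An unadjusted p under 0.05 with a higher level was found for 5 of them, against 3.26% of all genes, and the median was 0.23 against -0.021. MERTK, a receptor kinase for the uptake of dying cells, had 6.73 in either knockdown array against 5.55 and 5.83 in the controls. Its log2FC was 1.04 ± 0.13 (SE), with an adjusted p of 0.0336, and the knockdown values lay far above both controls. In 9 of 12 alternatives the adjusted p of MERTK was above 0.05, at 0.173 to 1, and its log2FC ran from 0.72 with normexp to 1.88 with the background-subtracted signal. ALOX5, which makes leukotrienes, had 8.71 with siRNA-A and 8.31 with siRNA-B against 7.71 and 8.04. Its log2FC was 0.63 ± 0.16 (SE, unadjusted p = 0.00449, adjusted p = 0.363), and the call was lost in 9 of 12 alternatives.

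The other members of this list at an unadjusted p under 0.05 were not called. The scavenger receptor CD36 had a log2FC of 0.44, the chemokine receptor CXCR4 0.39 and the plasminogen activator PLAU 0.32. A second probe of PLAU gave 0.32 as well. Without siRNA-B the first PLAU probe gave 0.20, and CXCR4 gave 0.24 without control siRNA-2. TGFBI, a gene named for its induction by TGF-beta, had 0.053 and its groups overlapped. Monocytic markers were mixed in direction: of 12 measured, CSF1R among them being shared with this list, 7 had a positive and 5 a negative log2FC, with a median of 0.090, 5 had both knockdown arrays above both controls, and 4 had an unadjusted p under 0.05 with a higher level, where the shares over all features were the same 15.2% and 3.26%. Among these, the surface receptor CD14, was up-regulated by 1.05 (adjusted p = 0.0355). The others were the integrin chain ITGAX with a log2FC of 0.62, the nuclear protein MNDA with 0.44 and the transcription factor CEBPB with 0.33. In 2 markers, the granule enzyme MPO with a log2FC of -0.22 and the lysosomal protein CD68 with -0.15, both knockdown arrays lay below both controls. The summed intensity of all 12 markers was 90320 and 96860 on the knockdown arrays and 88390 and 90430 on the controls. The part of the monocytic state in these values was not tested.

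Ligands and receptors of the activin and BMP branches moved in no common direction. Of 21 ligands 11 had a positive log2FC, with a median of 0.017. Only 14 of the ligands were well above background on all arrays, and in 5 neither group was so on every array. The activin subunit INHBA had a log2FC of 0.32 (unadjusted p = 0.0362), and GDF1, whose transcript also holds CERS1 and is therefore uncertain, had -0.35 (unadjusted p = 0.0448). Without siRNA-B these were 0.17 and -0.20, and GDF1 was also -0.20 without control siRNA-2. Of 10 receptors 5 were positive, with a median of 0.0026 and no gene at an unadjusted p under 0.05. ACVR1, a type I receptor, had 8.82 and 8.89 in the knockdown arrays and 8.56 and 8.69 in the controls, and BAMBI, a decoy receptor without a kinase, had 10.17 and 10.54 against 10.62 and 10.66. In both genes the groups were apart, in opposite directions. Of the 10 receptors 3 had both knockdown arrays above both controls and 2 had both below, patterns found in 15.2% and 21.4% of all probes. The BMP-branch SMAD5 and SMAD9 and the inhibitory SMAD6 had log2FCs of 0.035, -0.14 and -0.046, with overlap in all 3.

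Among 11 genes of latency and activation the median was -0.055. LTBP4, which stores latent TGF-beta in the matrix, had a log2FC of -0.33 (unadjusted p = 0.0214), but its other probe gave 0.025. The integrin chain ITGAV, part of receptors that release active TGF-beta, had -0.27 (unadjusted p = 0.0426). PLAU, which is also among these 11 genes, was higher, with a log2FC of 0.32 (unadjusted p = 0.0285 in limma). The 7 antagonists outside the cell had a median of -0.047 and none at an unadjusted p under 0.05.

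The list drawn up for anchors, partners and coactivators of SMADs held 16 genes, with a median of 0.014. It includes TRAP1 (log2FC 0.19) beside TGFBRAP1, and the place of TRAP1 among SMAD partners is uncertain. The transcription factor SP1, which binds GC boxes, had a log2FC of 0.28 (unadjusted p = 0.0378), and FOXH1, a DNA-binding partner of SMAD2, had 0.34 (unadjusted p = 0.0405). FOXH1 had 0.17 without siRNA-B, and SP1 had 0.17 with the unscaled background-subtracted signal. Of 18 repressors and enzymes that degrade or deubiquitinate SMADs and receptors, 14 had a negative log2FC, with a median of -0.090, and 6 had both knockdown arrays below both controls. Over all features 43.8% of genes had a positive log2FC, and 21.4% of probes had both knockdown arrays below both controls. The deubiquitinase USP11, known to act on TGFBR1, was the one of them at an unadjusted p under 0.05, with a log2FC of -0.31 by 1 probe and -0.21 by the other.

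The non-SMAD branch, with 12 kinases, adaptors and phosphatase subunits, had log2FCs between -0.086 and 0.14 and none at an unadjusted p under 0.05. Of 28 known SMAD target genes 11 had a positive and 17 a negative log2FC, with a median of -0.025 and no call. The integrin chain ITGB7, which pairs with the alpha chains of homing receptors, was the one target at an unadjusted p under 0.05, with a log2FC of 0.37 (unadjusted p = 0.0103).

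**Figure D5:**
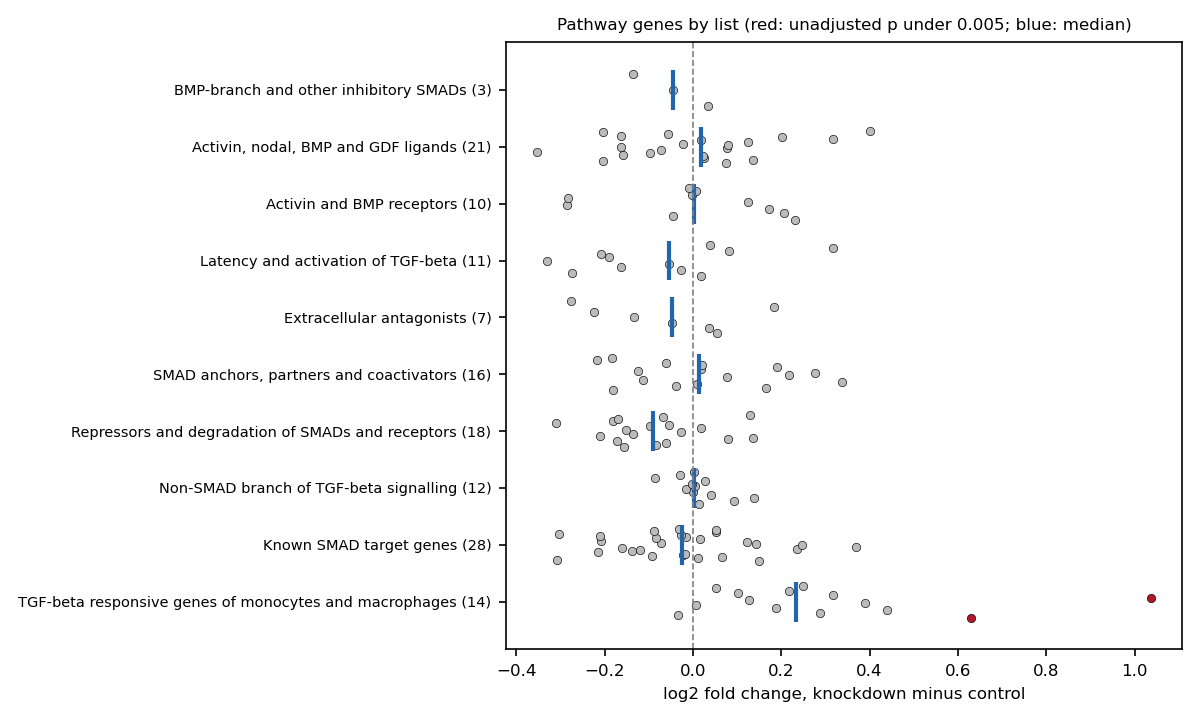
Log2FC (knockdown minus control) of each tested gene in the 10 pathway lists, with the number of genes in parentheses, red points for an unadjusted p under 0.005 and a blue bar at the list's median. The bar lies between -0.090 and 0.017 in all lists but that of TGF-beta responsive genes of monocytes and macrophages, at 0.23, which also holds both red points, MERTK and ALOX5. A gene of several lists is drawn in each. The lists were chosen with earlier results of these data known.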

How the data were processed

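RNA of THP1 cells was labelled with Cy3 and hybridised to Agilent arrays. The authors extracted spots with Agilent Feature Extraction 10.5.1.1 and deposited for each spot an intensity, equal to the median pixel signal in 100% of spots, without background correction or normalization between arrays, and a quality weight, a score whose origin is not given in the sources used here. The scanner tables they deposited also hold a background-subtracted signal intensity.

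Control spots and spots with a weight of 0 were left out, which kept 33323 of 43118 spots. Log2 intensities, averaged over identical spots, went into a fit by limma 3.58.1 under R 4.3.3 (weights, no covariates, two-sided p, Benjamini-Hochberg adjustment over 26219 probes), after the study's design, and called at an unadjusted p under 0.005. The study's further condition, a p under 0.05 over identical spots, was not applied, since spots were averaged. Groups came from the sample labels. With 2 arrays against 2 an exact permutation test cannot go below p = 0.333. Probe positions and gene names are those in the scanner tables; promoters came from RefSeq. The members and lists were chosen with earlier results of these data known. Named were all members, MLLT3 and HOXA9, and list genes that were called or, up to 15, had an unadjusted p under 0.05 with groups apart; other genes were named after their values were seen. Alternatives changed the scaling, normalization, background correction, weights, dim-probe filter, variance model or call rule, took the most changed probe of a gene, tested single spots, or left out 1 array. The fit was tested on simulated data.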

Additional observations from a re-analysis of the deposited data

Results flagged for a closer look

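In 2 members the siRNA arrays lay on opposite sides of both control arrays. In TGFBR3 the siRNA-A array lay below both controls and the siRNA-B array above both, with siRNA-B higher than siRNA-A by 0.172 on the log2 scale. In SMAD2 the same order was found, with siRNA-B higher by 0.0567. Each siRNA had 1 array, so the difference was not tested, and the median gene was higher by 0.071 with siRNA-B.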

How the results depend on the processing

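For each member 12 alternatives were computed. TGFB1 (0.015 to 0.25), TGFBR1 (0.36 to 0.55), TGFBR2 (0.049 to 0.41) and SMAD3 (0.15 to 0.27) stayed positive and TGFB2 (-0.38 to -0.0064) negative in all of them. The sign turned for TGFB3, lowest at -0.26 with the unscaled background-subtracted signal, without siRNA-B (0.034) or control siRNA-2 (0.15, against -0.22 without control siRNA-1), for TGFBR3 without siRNA-B (-0.020, against 0.15 without siRNA-A), for SMAD4 without control siRNA-1 (-0.042, and up to 0.093 without control siRNA-2), and for SMAD7 without control siRNA-2 (-0.064, and up to 0.16 without control siRNA-1). SMAD2 turned with the background-subtracted signal scaled (0.047) or unscaled (0.017), after quantile (0.020), cyclic loess (0.021) or normexp with quantile normalization (0.050), and without siRNA-A (0.020, against -0.037 without siRNA-B). None of the values whose sign turned passed a threshold, and the cause was not tested. After quantile, cyclic loess and normexp with quantile normalization, TGFBR2 had an unadjusted limma p of 0.049, 0.048 and 0.033 in turn. SMAD3 had 0.040, 0.040 and 0.023. The count of 1 member at an unadjusted p under 0.05 therefore did not hold in these settings. The number of members called higher, 1 as reported, was 0 with the background-subtracted signal scaled or unscaled, without spot weights and at an adjusted p under 0.05, and 0 to 0 when each array was left out in turn. TGFBR1 then had a log2FC of 0.55 without siRNA-A, 0.36 without siRNA-B, 0.39 without control siRNA-1 and 0.51 without control siRNA-2, and its adjusted p was 0.24 to 1 over all alternatives. The number of pathway genes called higher, 2 as reported, was 1 with the background-subtracted signal scaled or unscaled and after quantile or cyclic loess normalization, and 0 to 1 when arrays were left out. The number called lower, 0 as reported, was 1 with the unscaled background-subtracted signal. MERTK lost its call without siRNA-A (1.03) or siRNA-B (1.04), and PLAU was called after normexp with quantile normalization (0.36). No paired analysis was possible, because each array holds RNA pooled from 5 experiments and no label pairs a knockdown array with a control array. With 1 array omitted, the array that remained alone was assumed to vary like the other group. The number of arrays limits the precision.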

Other observations

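Markers of other cell types were measured beside the pathway. Of 5 T cell markers 1, the kinase LCK, was up-regulated by 0.52 (unadjusted p = 0.00169 in limma). Its other probe gave -0.16, but was well above background on no knockdown array and on 1 control array. Of 5 B cell markers none passed an unadjusted p under 0.05. Over all genes 0.63% were called higher, and at an unadjusted p under 0.05 3.26% were higher and 4.74% lower. Of 5 fibroblast and epithelial markers 1, the cadherin CDH1, had an unadjusted p under 0.05, and it was not well above background on the control arrays. Their part in the values of the TGF-beta genes was not tested.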
